A study of Mus musculus with 12 samples.

Results

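The subject is the RNA of 10 marker genes of liver sinusoidal endothelial cells, Stab1, Stab2, Lyve1, Clec4g, Fcgr2b, Egfl7, Kdr, Pecam1, Gata4 and Oit3, chosen by symbol. All 10 were found among the 47069 genes listed, and all 10 were among the 17386 genes tested, those with a mean of at least 0.1 FPKM (a level scaled to transcript length and library size). The study asked how loss of the mitotic kinase Cdk1 in hepatocytes acts on the young liver. Polyadenylated RNA of 12 samples from mice at P14 (postnatal day 14) was sequenced, with 3 libraries in each of 4 groups, isolated hepatocytes and whole liver of WT and of Cdk1 Liv-/- mice. The Cdk1 Liv-/- mice carry Cdk1 flox/flox with Albumin-Cre, whose Albumin promoter drives Cre in the hepatocyte lineage, and the controls are labelled wild type without further alleles. From the spacing of low values, 1 FPKM on 1 kb of transcript stood for about 34.7 to 49.8 reads, so that the lowest member value, Lyve1 in a Cdk1 Liv-/- hepatocyte library, rested on about 119 reads.

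Sinusoidal endothelial cells line the capillaries of the liver lobule. They have open pores and no continuous basement membrane, and they clear macromolecules from blood through scavenger, lectin and Fc receptors, while the transcription factor GATA4 keeps this sinusoidal state in place of that of a continuous capillary. They exchange signals with hepatocytes, which make VEGF for the receptor encoded by Kdr. In bulk samples such as these, fewer endothelial cells and less RNA per endothelial cell cannot be told apart.

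The labels were first checked against the data. Cdk1 was at 27.9, 20.4 and 28.2 FPKM in WT hepatocytes replicates 1 to 3, against 9.68, 11.8 and 6.87 FPKM in Cdk1 Liv-/- hepatocytes. In whole liver it was at 25.3, 22.7 and 21.5 FPKM in WT, against 11.7, 12.1 and 14.2 FPKM in Cdk1 Liv-/-, so that the genotypes did not overlap in either compartment. All mice were male by the study's methods, yet Cdk1 Liv-/- whole liver replicate 3 held 158 FPKM of Xist and none of 4 Y-linked genes, whereas Xist was at most 0.14 FPKM in the other 11 libraries. Albumin RNA (Alb) was at 60008, 64298 and 62222 FPKM in WT hepatocytes and at 58998, 56843 and 61172 FPKM in WT whole liver, ranges that overlap. It was at 41868, 44890 and 39898 FPKM in Cdk1 Liv-/- hepatocytes and at 47348, 43328 and 46153 FPKM in Cdk1 Liv-/- whole liver, below every WT library. The members, summed, were at 201, 135 and 371 FPKM in WT hepatocytes, 96.4, 60.5 and 67.2 in Cdk1 Liv-/- hepatocytes, 200, 228 and 269 in WT whole liver and 247, 324 and 262 in Cdk1 Liv-/- whole liver. WT hepatocyte libraries thus held about as much member RNA as WT whole liver and spread far more widely. Replicate 3 was the highest and replicate 2 the lowest of the WT hepatocyte libraries for 10 of 10 members. In whole liver, WT replicate 3 was the highest WT library for 8 of 10 members, and Cdk1 Liv-/- replicate 2 the highest Cdk1 Liv-/- library for 8 of 10. Results are therefore also given without these libraries.

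**Figure D1:**
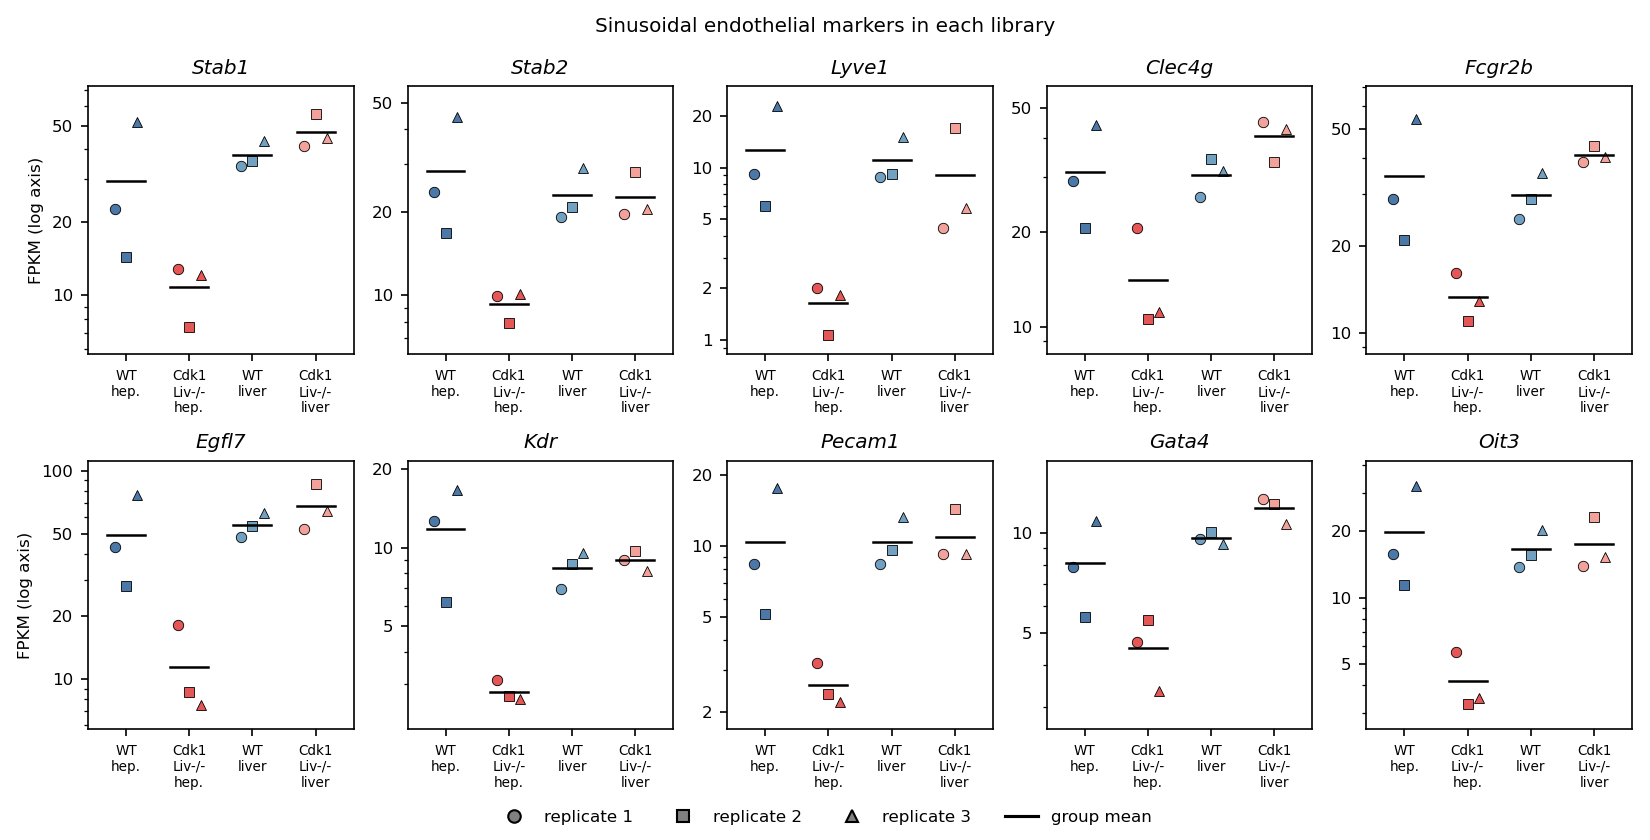
FPKM of the 10 members (log axis) in each of the 12 libraries, with replicates as symbols and group means as lines. Cdk1 Liv-/- hepatocytes are the lowest group for every member, and WT hepatocytes replicate 3 is the highest WT hepatocyte library in every panel.

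Stab1 (ENSMUSG00000042286, chr14:31139013-31168641, minus strand) and Stab2 (ENSMUSG00000035459, chr10:86841198-87008025, minus strand) encode the stabilins, large scavenger receptors that take up modified proteins and hyaluronan. Because the members moved together among the hepatocyte libraries, their promoters (250 bases before to 50 after the start, RefSeq, GRCm38.p6) were searched on both strands for GATA letters (AGATAA or TGATAA, and also AGATAG or TGATAG) and ETS letters (AGGAAG or CGGAAG), the words read by endothelial GATA and ETS factors. A promoter was found for 6 of the 10 members, 8 promoters in all, with none for Lyve1, Pecam1, Gata4 and Oit3. GATA letters lay in 5 of the 8 and in 29.8% of all 32851 promoters, and ETS letters in 5 of the 8 and in 46.5% of all promoters. By member, 3 of 6 had GATA letters and 4 of 6 ETS letters, since 3 of the 5 promoters with GATA letters are starts of Egfl7. The stabilin promoters (Stab1, chr14:31168592-31168891, minus strand; Stab2, chr10:87007893-87008192, minus strand) are shown 5′ to 3′ as the pair of related receptors, with ETS letters in capitals. Neither window held GATA letters, and a match is a description only.
Stab1 promoter: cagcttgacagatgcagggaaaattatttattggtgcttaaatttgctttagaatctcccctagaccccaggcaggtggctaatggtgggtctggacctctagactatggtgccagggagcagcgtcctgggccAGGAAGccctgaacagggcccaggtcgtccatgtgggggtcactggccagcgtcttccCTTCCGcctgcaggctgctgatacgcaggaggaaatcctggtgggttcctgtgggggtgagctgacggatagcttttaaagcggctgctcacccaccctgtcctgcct
Stab2 promoter: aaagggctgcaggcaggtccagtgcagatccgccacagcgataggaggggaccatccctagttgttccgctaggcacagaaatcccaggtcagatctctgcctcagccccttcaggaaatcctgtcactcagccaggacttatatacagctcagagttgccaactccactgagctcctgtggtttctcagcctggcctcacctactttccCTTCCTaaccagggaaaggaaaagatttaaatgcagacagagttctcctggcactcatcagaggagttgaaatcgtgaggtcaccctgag

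In hepatocytes, Stab1 was at 22.7, 14.5 and 51.9 FPKM in WT, against 12.8, 7.44 and 12.1 FPKM in Cdk1 Liv-/-. The highest Cdk1 Liv-/- library lay just below the lowest WT library, and the log2 fold change of -1.25 (SE 0.47, adjusted p = 0.145) did not pass the threshold of an adjusted p of at most 0.1. It passed without WT replicate 2 at -1.66 (adjusted p = 0.0803) and in a fit of all 12 libraries (0.033), between 0.033 and 0.316 over the alternatives. Stab2 was at 23.7, 16.9 and 44.2 FPKM in WT, against 9.95, 7.91 and 10.1 FPKM in Cdk1 Liv-/- hepatocytes. It fell by 1.45 on the log2 scale (SE 0.34, adjusted p = 0.0473), with no overlap. The call was lost without WT replicate 1 (adjusted p = 0.118) and without Cdk1 Liv-/- replicates 1, 2 and 3 (0.109, 0.128 and 0.113), between 0.00579 and 0.144 over the alternatives. In whole liver, Stab1 was at 34.1, 35.7 and 43.4 FPKM in WT, against 41.3, 55.9 and 44.5 FPKM in Cdk1 Liv-/-. These overlap, and the log2 fold change was 0.32 (SE 0.14, adjusted p = 0.138), which passed without WT replicate 3 (0.42, adjusted p = 0.0975, between 0.0543 and 0.658 over the alternatives). Stab2 was at 19.3, 20.8 and 28.9 FPKM in WT whole liver and 19.7, 28.0 and 20.6 FPKM in Cdk1 Liv-/-, which cover nearly the same range. Its log2 fold change there was -0.01 (SE 0.20, adjusted p = 0.973).

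Lyve1 (ENSMUSG00000030787, chr7:110850607-110863239, minus strand) encodes a hyaluronan receptor of sinusoidal and lymphatic endothelium. It was at 9.12, 6.01 and 22.9 FPKM in WT hepatocytes and 1.99, 1.07 and 1.82 FPKM in Cdk1 Liv-/- hepatocytes. Every Cdk1 Liv-/- library was below 2 FPKM and none overlapped WT. The log2 fold change of -2.45 (SE 0.48, adjusted p = 0.0284) was the lowest of the 10 members. In whole liver, Lyve1 was at 8.80, 9.20 and 15.0 FPKM in WT, against 4.43, 17.1 and 5.81 FPKM in Cdk1 Liv-/-. Replicates 1 and 3 of Cdk1 Liv-/- lay below all WT libraries and replicate 2 above them all, with a log2 fold change of -0.45 (SE 0.50, adjusted p = 0.514). Without Cdk1 Liv-/- replicate 2 the log2 fold change was -1.004 and passed (adjusted p = 0.0506), while the adjusted p lay between 0.0463 and 0.911 over all alternatives.

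Clec4g (ENSMUSG00000074491, chr8:3707064-3720651, minus strand) encodes the C-type lectin LSECtin, and Fcgr2b (ENSMUSG00000026656, chr1:170958617-170976547, minus strand) the inhibitory Fc receptor that takes up small immune complexes and is also carried by B cells and macrophages. Both promoters hold GATA letters, and that of Clec4g also has 3 matches of the ETS letters, of which a pair overlaps, all in capitals (Clec4g, chr8:3720602-3720901, minus strand; Fcgr2b, chr1:170976022-170976321, minus strand). They are shown because these members passed as higher in Cdk1 Liv-/- whole liver, as did 38.0% of all genes. Neither call held with size factors or in a fit of all 12 libraries. A link between the letters and the levels was not tested.
Clec4g promoter: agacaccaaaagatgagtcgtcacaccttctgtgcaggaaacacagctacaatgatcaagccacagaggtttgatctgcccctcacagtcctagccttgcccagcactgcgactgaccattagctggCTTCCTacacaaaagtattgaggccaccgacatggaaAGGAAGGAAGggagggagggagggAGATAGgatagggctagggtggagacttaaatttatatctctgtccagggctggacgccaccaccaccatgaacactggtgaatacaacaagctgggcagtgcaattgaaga
Fcgr2b promoter: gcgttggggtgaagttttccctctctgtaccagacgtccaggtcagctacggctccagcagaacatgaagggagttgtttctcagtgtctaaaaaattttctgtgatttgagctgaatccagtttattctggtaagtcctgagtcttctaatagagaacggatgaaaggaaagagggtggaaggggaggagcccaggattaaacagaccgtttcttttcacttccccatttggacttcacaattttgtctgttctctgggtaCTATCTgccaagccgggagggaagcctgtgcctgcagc

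Clec4g was at 29.2, 20.6 and 44.0 FPKM in WT hepatocytes and 20.6, 10.6 and 11.1 FPKM in Cdk1 Liv-/- hepatocytes. The highest Cdk1 Liv-/- library equals the lowest WT library. With a log2 fold change of -1.12 (SE 0.35, adjusted p = 0.0975), it passed narrowly, and not without WT replicates 1 and 3 or Cdk1 Liv-/- replicates 2 and 3 (adjusted p of 0.204, 0.204, 0.23 and 0.24, between 0.018 and 0.24 over the alternatives). Fcgr2b was at 28.97, 20.8 and 54.2 FPKM in WT, against 16.2, 11.01 and 12.9 FPKM in Cdk1 Liv-/- hepatocytes, with no overlap. It fell by 1.25 on the log2 scale (SE 0.35, adjusted p = 0.0739), but did not pass without WT replicate 1 (adjusted p = 0.158) or Cdk1 Liv-/- replicates 1, 2 and 3 (0.121, 0.184 and 0.178), between 0.00973 and 0.186 over the alternatives. In whole liver both were higher in Cdk1 Liv-/-. Clec4g was at 26.0, 34.4 and 31.4 FPKM in WT, against 45.1, 33.5 and 42.9 FPKM in Cdk1 Liv-/-, where replicate 2 lay within the WT range. Fcgr2b was at 24.7, 28.98 and 35.6 FPKM in WT whole liver and 38.6, 44.0 and 40.1 FPKM in Cdk1 Liv-/-, with no overlap. The log2 fold change in whole liver was 0.40 (SE 0.15, adjusted p = 0.0903) for Clec4g. It passed without WT replicate 2 and without Cdk1 Liv-/- replicate 2, and not without WT replicates 1 and 3 (0.23 and 0.16) or Cdk1 Liv-/- replicates 1 and 3 (0.204 and 0.209), between 0.0402 and 0.443 over the alternatives. For Fcgr2b it was 0.47 (SE 0.14, adjusted p = 0.0456). The adjusted p of Fcgr2b was 0.102 and 0.117 without WT replicates 1 and 2, and 0.114 and 0.102 without Cdk1 Liv-/- replicates 2 and 3, between 0.0234 and 0.251 over the alternatives.

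Kdr (ENSMUSG00000062960, chr5:75932827-75978458, minus strand) encodes VEGF receptor 2, and Egfl7 (ENSMUSG00000026921, chr2:26580014-26593120, plus strand) a protein that endothelial cells secrete, with miR-126 within the gene. The promoter at the second of 3 Egfl7 starts (chr2:26583615-26583914, plus strand) is shown as an example, because Egfl7 was the most abundant member in whole liver. The window holds both kinds of letters, as that of the first start also does, here GATA letters as TGATAA on the minus strand and ETS letters in 2 matches, all in capitals. Promoters with both kinds are 12.6% of all. The Kdr window (chr5:75978406-75978705, minus strand) held neither.
Egfl7 promoter: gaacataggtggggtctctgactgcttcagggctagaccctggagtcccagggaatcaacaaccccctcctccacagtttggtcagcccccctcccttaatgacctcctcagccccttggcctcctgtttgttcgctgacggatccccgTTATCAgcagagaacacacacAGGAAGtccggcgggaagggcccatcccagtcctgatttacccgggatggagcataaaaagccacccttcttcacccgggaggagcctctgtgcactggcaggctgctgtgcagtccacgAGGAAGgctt

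Kdr was at 12.6, 6.22 and 16.6 FPKM in WT hepatocytes and 3.11, 2.70 and 2.63 FPKM in Cdk1 Liv-/- hepatocytes. The Cdk1 Liv-/- libraries lay close together and far below WT, and Kdr had the smallest adjusted p of the members there, at a log2 fold change of -1.79 (SE 0.34, adjusted p = 0.0254). Egfl7 was at 43.0, 27.9 and 76.4 FPKM in WT, against 18.2, 8.63 and 7.47 FPKM in Cdk1 Liv-/- hepatocytes. It fell by 2.04 on the log2 scale (SE 0.46, adjusted p = 0.0412) without overlap, a call lost without WT replicate 1 (adjusted p = 0.117) and without Cdk1 Liv-/- replicates 2 and 3 (0.117 and 0.12), between 0.00324 and 0.136 over the alternatives. In whole liver, Kdr was at 6.93, 8.64 and 9.58 FPKM in WT, against 8.94, 9.73 and 8.14 FPKM in Cdk1 Liv-/-. Egfl7 was at 48.4, 54.4 and 62.6 FPKM in WT whole liver and 52.8, 86.2 and 64.4 FPKM in Cdk1 Liv-/-. The groups overlap for both genes, with log2 fold changes of 0.10 (SE 0.13, adjusted p = 0.599) for Kdr and 0.28 (SE 0.19, adjusted p = 0.309) for Egfl7. Of the 3581 bases of Egfl7 exons, 64 overlap exons of Agpat2 on the opposite strand, and whether counting used the strand is not stated. Reads of the overlap cannot be told apart if it did not. On the same strand 264 bases overlap Gm20532, listed at a mean of 0.008 FPKM. Of the 10288 bases of Stab1 exons, 112 overlap Nt5dc2 on the opposite strand, which had a mean of 10.98 FPKM over the 12 libraries. Agpat2 was at 121 ± 11.4 FPKM (SD, n = 3) in WT hepatocytes, against 101 ± 14.8 FPKM (SD, n = 3) in those of Cdk1 Liv-/-.

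Pecam1 (ENSMUSG00000020717, chr11:106654217-106750628, minus strand) encodes an adhesion molecule of all endothelium, Gata4 (ENSMUSG00000021944, chr14:63198922-63271692, minus strand) the transcription factor named above, which stellate cells and hepatocytes also make, and Oit3 (ENSMUSG00000009654, chr10:59422958-59441778, minus strand) a secreted protein. Pecam1 was at 8.42, 5.18 and 17.6 FPKM in WT hepatocytes and 3.21, 2.39 and 2.20 FPKM in Cdk1 Liv-/-. Oit3 was at 15.7, 11.4 and 32.3 FPKM in WT hepatocytes and 5.68, 3.28 and 3.51 FPKM in Cdk1 Liv-/-. Neither gene's groups overlapped, and the log2 fold changes were -1.66 (SE 0.42, adjusted p = 0.0565) for Pecam1 and -2.03 (SE 0.40, adjusted p = 0.0284) for Oit3. Pecam1 did not pass without WT replicate 1 (adjusted p = 0.138) or Cdk1 Liv-/- replicates 1, 2 and 3 (0.108, 0.141 and 0.154), between 0.00757 and 0.157 over the alternatives. Gata4 was at 7.91, 5.57 and 10.8 FPKM in WT hepatocytes and 4.70, 5.46 and 3.34 FPKM in Cdk1 Liv-/-. Its groups nearly touched, and its log2 fold change of -0.76 (SE 0.27, adjusted p = 0.133), the closest to 0 of the 10, did not pass. It passed without WT replicate 2 (-0.99, adjusted p = 0.082), with size factors (0.0911) and in a fit of all 12 libraries (0.0249), between 0.0249 and 0.296 over the alternatives. In whole liver, Gata4 was at 9.55, 10.02 and 9.24 FPKM in WT, against 12.7, 12.2 and 10.6 FPKM in Cdk1 Liv-/-, without overlap. It was higher in Cdk1 Liv-/- by 0.28 (SE 0.08, adjusted p = 0.0416) on the log2 scale, and not past the threshold without WT replicates 1 and 3 (0.117 and 0.112), between 0.028 and 0.534 over the alternatives. Pecam1 was at 8.37, 9.63 and 13.3 FPKM in WT whole liver and 9.21, 14.4 and 9.27 FPKM in Cdk1 Liv-/-. Oit3 was at 13.8, 15.7 and 20.3 FPKM in WT whole liver and 13.97, 23.4 and 15.3 FPKM in Cdk1 Liv-/-. For both, Cdk1 Liv-/- replicate 2 was above every WT library and the other Cdk1 Liv-/- libraries were within the WT range, with adjusted p of 0.856 for Pecam1 and 0.849 for Oit3.

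Taking the members as a list, Cdk1 Liv-/- hepatocyte preparations held less of their RNA than WT preparations. All 10 had a log2 fold change below 0, and 8 of 10 passed as lower, where 6.61% of all genes tested did and 12.1% passed as higher. The median of the members was -1.55, against 0.05 over all genes. For 9 of 10 members the groups did not overlap, as for 13.4% of all genes in that direction. The number that passed depended on single libraries: it was 3, 10 and 7 with WT replicates 1, 2 and 3 left out in turn. It was 5, 3 and 3 with Cdk1 Liv-/- replicates 1, 2 and 3 left out. Calls over all genes moved as well, from 1149 lower to 402, 1224 and 763 for the WT libraries and to 664, 647 and 497 for those of Cdk1 Liv-/-. Lyve1, Kdr and Oit3 passed with each of the 6 libraries left out in turn, at adjusted p of at most 0.0854, 0.0966 and 0.0904. All 10 members had an unadjusted p under 0.05 in limma, as did 4939 of the 17386 genes in either direction. With a two-sample test on the gene's own spread, 0 of 10 passed, and without a filter on low values 3 did, where over all genes 568 and 714 passed as lower.

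In whole liver the genotypes gave the members as a list a share of calls near that of all genes. Of the 10, 3 passed as higher in Cdk1 Liv-/- (Clec4g, Fcgr2b and Gata4), where 38.0% of all genes did, and 0 passed as lower, where 7.53% of all genes did. At an unadjusted p under 0.05, limma gave 3 higher and 0 lower, where 8109 of the 17386 genes were in either direction. A two-sample test with the gene's own spread passed 1 as higher, Gata4, where 5719 of all genes were. The median log2 fold change was 0.19, against 0.18 over all genes, so the count is no result about the members. Relative to this shift the changes were 0.28 for Fcgr2b, 0.22 for Clec4g, 0.10 for Gata4 and -0.63 for Lyve1. Scaling by median-ratio size factors brings the median of all genes to 0.01. Then 0 of 10 passed, and Kdr, Pecam1 and Oit3 turned below 0, while with all libraries scaled to the same sum Stab2 turned above 0. The number that passed as higher was 0 without WT replicate 1, 1 without the Cdk1 Liv-/- library that held Xist (replicate 3), and 2 without any of the other 4 libraries. Higher calls over all genes moved from 6610 to 4509, 5396 and 5157 without WT replicates 1, 2 and 3. They were 6190, 5733 and 5479 without Cdk1 Liv-/- replicates 1, 2 and 3. A fit of all 12 libraries gave 0 members, where 4928 of all genes passed as higher.

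**Figure D2:**
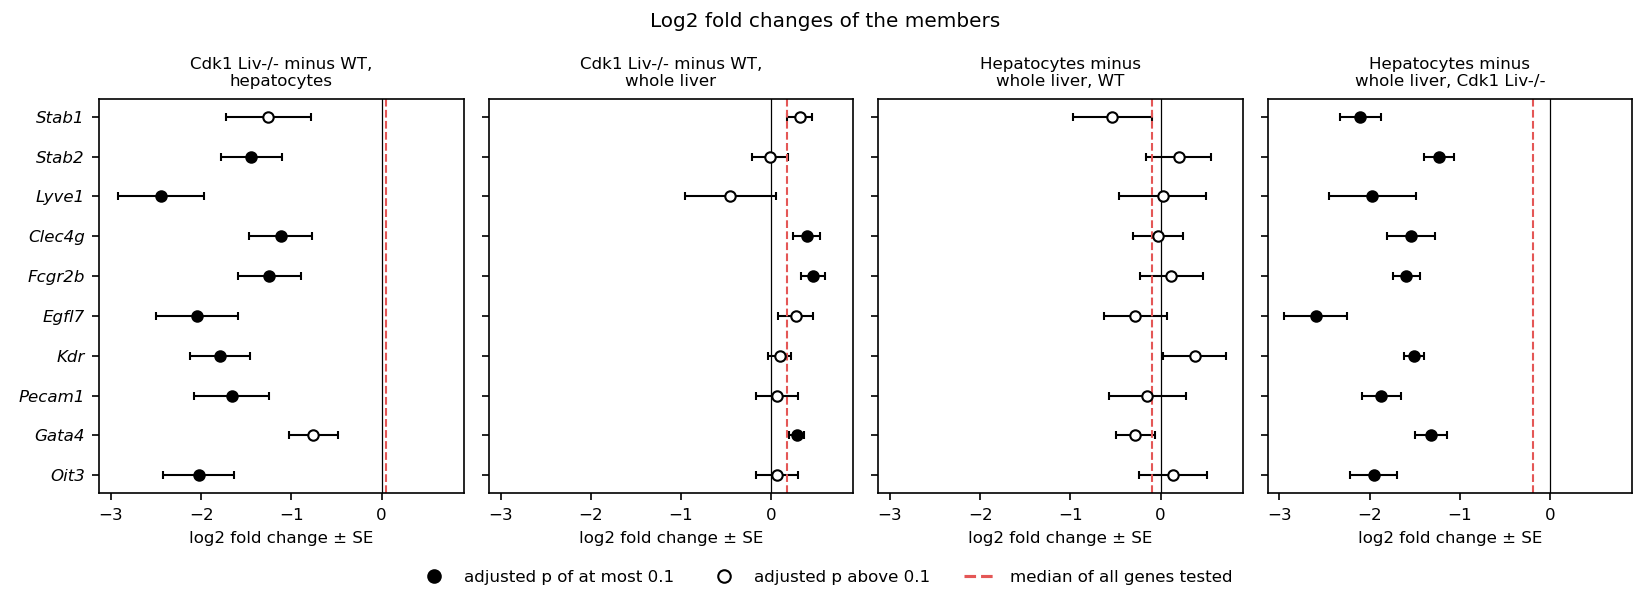
Log2 fold change of each member with its standard error in 4 comparisons of 3 against 3 libraries, filled where the adjusted p was at most 0.1, with the median of all genes as a dashed line. In hepatocytes all 10 points lie below 0 and in whole liver they scatter around the median of 0.18.

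Levels in isolated hepatocytes were set against those in whole liver within each genotype, in comparisons that share libraries with those above. In WT, no difference between hepatocytes and whole liver passed the test for any member. By limma, 0 of 10 passed in either direction, where 0.104% of all genes passed as higher and 1.42% as lower in hepatocytes, and 0 passed by a two-sample test with the gene's own spread. None had an unadjusted p under 0.05, where 3272 of the 17386 genes did. Log2 fold changes ran from -0.53 (SE 0.44, adjusted p = 0.519) for Stab1 to 0.38 (SE 0.35, adjusted p = 0.558) for Kdr, and every member's groups overlapped. The signs are not stable, and that of Clec4g turned above 0 under both other scalings. Without WT hepatocytes replicate 3, Stab1 passed as lower at -1.03 (adjusted p = 0.0588, range 0.0588 to 0.875 over the alternatives), and the genes lower over all went from 247 to 2656. In Cdk1 Liv-/-, 10 of 10 members passed as lower in hepatocytes, where 35.9% of all genes did and 8.86% passed as higher. For all 10 the groups did not overlap, as for 40.3% of all genes. The median was -1.73, against -0.19 over all genes. Lists of other cells were lower too: 12 of 12 stellate cell and fibroblast genes passed (median -2.15), 10 of 11 Kupffer cell and macrophage genes (-1.96), 6 of 6 monocyte and neutrophil genes (-2.05), 5 of 5 B cell genes (-1.64) and 5 of 5 cholangiocyte genes tested (-1.34). Their part in the members' values was not tested. Egfl7 had the lowest log2 fold change, -2.60 (SE 0.35, adjusted p = 0.00339), and Stab2 the one closest to 0, -1.24 (SE 0.17, adjusted p = 0.00336). All 10 also passed under each alternative run, including each library left out.

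A test of the interaction over all 12 libraries asked if the genotypes differ by another amount in hepatocytes than in whole liver. It was below 0 for all 10 members, and 8 of 10 passed, where 7.49% of all genes did in that direction. The median was -1.72, against -0.11 over all genes. In the same test 18 of 20 general endothelial genes (median -1.63), 4 of 11 Kupffer cell and macrophage genes (-1.42), 4 of 12 stellate cell and fibroblast genes (-1.40) and 4 of 6 monocyte and neutrophil genes (-1.52) passed as lower. Kdr gave -1.89 (SE 0.38, adjusted p = 0.0439) and Egfl7 -2.32 (SE 0.53, adjusted p = 0.0544), while Stab1 with -1.57 (SE 0.53, adjusted p = 0.11) and Lyve1 with -1.99 (SE 0.73, adjusted p = 0.136) did not pass. Without WT hepatocytes replicate 2 both passed (adjusted p of 0.0251 for Stab1 and 0.0684 for Lyve1, up to 0.252 and 0.263 over the alternatives). Kdr was lost without WT whole liver replicate 1 (0.126, the highest over the alternatives). Egfl7 was lost without that library (0.141), WT whole liver replicate 2 (0.108) or Cdk1 Liv-/- whole liver replicate 2 (0.111), with a highest value of 0.174. The number that passed was 4 without WT hepatocytes replicate 1, 10 without replicate 2 and 5 without replicate 3. For Cdk1 Liv-/- hepatocytes replicates 1, 2 and 3 left out in turn it was 5, 5 and 4. For those of WT whole liver it was 0, 1 and 4, and for those of Cdk1 Liv-/- whole liver 4, 1 and 4. Lower calls over all genes fell too, from 1303 to 43, 280 and 330 for WT whole liver and to 935, 266 and 523 for Cdk1 Liv-/- whole liver. They were 633, 2232 and 693 for WT hepatocytes and 801, 1041 and 572 for Cdk1 Liv-/- hepatocytes. With median-ratio size factors 4 members passed, as did 13 of 20 general endothelial genes, 1 of 11 Kupffer cell and macrophage genes, 1 of 12 stellate cell and fibroblast genes and 3 of 6 monocyte and neutrophil genes, and 492 of all genes. The median of the members was then -1.58, against 0.01 over all genes. Of the members 0 passed, and of all genes 105, without WT hepatocytes replicate 3, WT whole liver replicate 3 and Cdk1 Liv-/- whole liver replicate 2 together, a choice made after the values were seen. The interaction was below 0 for each member in each of these.

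Other endothelial lists show what moved with the members. Of 20 general endothelial genes, 19 passed as lower in Cdk1 Liv-/- hepatocytes, where 6.61% of all genes did, with a median of -1.56. In whole liver of Cdk1 Liv-/- mice, 1 passed as higher, where 38.0% of all genes did, with a median of 0.05 against 0.18. With size factors 0 passed there as higher and 1 as lower, where 3107 and 2844 of all genes did. The list summed to 103, 72.1 and 210 FPKM in WT hepatocytes, 39.8, 27.8 and 27.3 in Cdk1 Liv-/- hepatocytes, 111, 130 and 155 in WT whole liver and 129, 184 and 124 in Cdk1 Liv-/- whole liver, and none of its genes was at 0 in any library. Its most abundant gene, Eng, a co-receptor of TGF-beta family ligands, had a log2 fold change of -1.88 (SE 0.37, adjusted p = 0.0295) in hepatocytes and 0.02 (SE 0.15, adjusted p = 0.929) in whole liver. Cldn5, a tight junction protein, gave -1.93 (SE 0.40, adjusted p = 0.0343) in hepatocytes, while Ecscr, which was closest to 0, gave -0.88 (SE 0.47, adjusted p = 0.271). Of 11 other sinusoidal genes, 7 passed as lower in hepatocytes, where 6.61% of all genes did, with a median of -1.44. In whole liver 4 passed as higher, where 38.0% of all genes did, with a median of 0.24 against 0.18 over all genes, and with size factors 2 did and 1 passed as lower. The mannose receptor Mrc1, the most abundant of them, gave -1.67 (SE 0.40, adjusted p = 0.0488) in hepatocytes and 0.24 (SE 0.21, adjusted p = 0.417) in whole liver. Adam23 with 1.03 (SE 0.15, adjusted p = 0.00681) and Clec1b with 0.82 (SE 0.26, adjusted p = 0.0579) rose most in whole liver. Ehd3 was lowest there at -0.48 (SE 0.28, adjusted p = 0.222).

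Genes listed for continuous and large vessels were mostly higher in Cdk1 Liv-/- whole liver, but they did not move alike in the other comparisons. Of 9, 8 passed as higher in Cdk1 Liv-/- whole liver, where 38.0% of all genes did, with a median of 0.78 against 0.18. With size factors 4 passed, as did 3107 of the 17386 genes, with a median of 0.56 against 0.01. Cd34, a sialomucin of continuous capillaries, was at 1.85, 2.31 and 3.84 FPKM in WT, against 5.33, 7.59 and 5.39 FPKM in Cdk1 Liv-/- whole liver. Icam1, a leukocyte adhesion receptor that NF-kappaB induces in many cell types, was at 10.9, 12.1 and 9.66 FPKM in WT, against 33.2, 29.8 and 23.4 FPKM in Cdk1 Liv-/-. Neither gene's groups overlapped, with log2 fold changes of 1.09 (SE 0.26, adjusted p = 0.0247) for Cd34 and 1.36 (SE 0.15, adjusted p = 0.00307) for Icam1, the largest among genes of the list with a mean of at least 1 FPKM. Plvap, a protein of fenestral diaphragms, was lowest at -0.20 (SE 0.25, adjusted p = 0.569). Aqp1, the most abundant, gave 0.54 (SE 0.15, adjusted p = 0.0361) in whole liver and -1.59 (SE 0.37, adjusted p = 0.047) in hepatocytes. In hepatocytes the list had a median of -0.29, with 1 gene lower (Aqp1) and 2 higher (1 with size factors), where 12.1% of all genes were higher. The higher ones were Icam1 at 0.60 and Sele at 0.26, the latter named after its values were seen. Between WT hepatocytes and WT whole liver, Aqp1 was at 0.13 and the other 8 genes were below 0, with 0 passing. Lists of other cells were also higher in Cdk1 Liv-/- whole liver, with 6 of 6 monocyte and neutrophil genes (median 1.47). So were 7 of 12 stellate cell and fibroblast genes (0.555, with 1 lower) and 4 of 5 cholangiocyte genes tested (1.26). Of 12 hepatocyte genes 5 passed there as lower, and of 5 B cell genes 2 did, where 7.53% of all genes did. The part of these lists in the change of the vessel genes was not tested. Of the smaller endothelial lists, 3 of 7 pericentral genes and 2 of 8 periportal and arterial ones passed as lower in hepatocytes, where 6.61% of all genes did. In whole liver 0 of 7 and 1 of 8 passed as higher, where 38.0% of all genes did. Of 20 genes of VEGF, angiopoietin and Notch signalling, 9 passed as lower in hepatocytes (6.61% of all genes) and 3 as higher in whole liver (38.0%). Of 18 endothelial transcription factors, 7 passed as lower and 2 as higher in hepatocytes, where 6.61% and 12.1% of all genes did. In whole liver 6 of the 18 passed as higher, where 38.0% of all genes did. With size factors 3 did there, as did 3107 of the 17386 genes. These lists share genes with the other endothelial lists, which hold 4 of those 9 (Flt1, Flt4, Tek and Tie1) and 4 of those 7 (Erg, Sox7, Sox17 and Sox18).

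The lists of Kupffer cells and of stellate cells also had medians below 0 in Cdk1 Liv-/- against WT hepatocytes, while that of cholangiocytes had a median of 0.72. Of 11 Kupffer cell and macrophage genes, 2 passed as lower, where 6.61% of all genes did, with a median of -1.11. With size factors 6 did, as did 1414 of the 17386 genes. The list summed to 368, 200 and 671 FPKM in WT hepatocytes, 223, 165 and 144 in Cdk1 Liv-/- hepatocytes, 526, 581 and 587 in WT whole liver and 668, 904 and 699 in Cdk1 Liv-/- whole liver, with Cd5l as the most abundant gene. Of 12 stellate cell and fibroblast genes, 3 passed as lower in hepatocytes, where 6.61% of all genes did, with a median of -0.91. With size factors 5 did, against the same 1414 of all genes. This list, led by Col3a1, summed to 259, 154 and 549 FPKM in WT hepatocytes, 148, 129 and 116 in Cdk1 Liv-/- hepatocytes, 551, 548 and 610 in WT whole liver and 922, 1098 and 882 in Cdk1 Liv-/- whole liver. No gene of either list was listed at 0 in any library. In WT hepatocytes, replicate 3 was highest and replicate 2 lowest for both sums, as for the members. Of 12 hepatocyte genes, 2 passed as higher and 2 as lower in hepatocytes, where 12.1% and 6.61% of all genes did. In whole liver 5 of them passed as lower, where 7.53% of all genes did. The part of these shifts in the changes of the members was not tested.

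**Figure D3:**
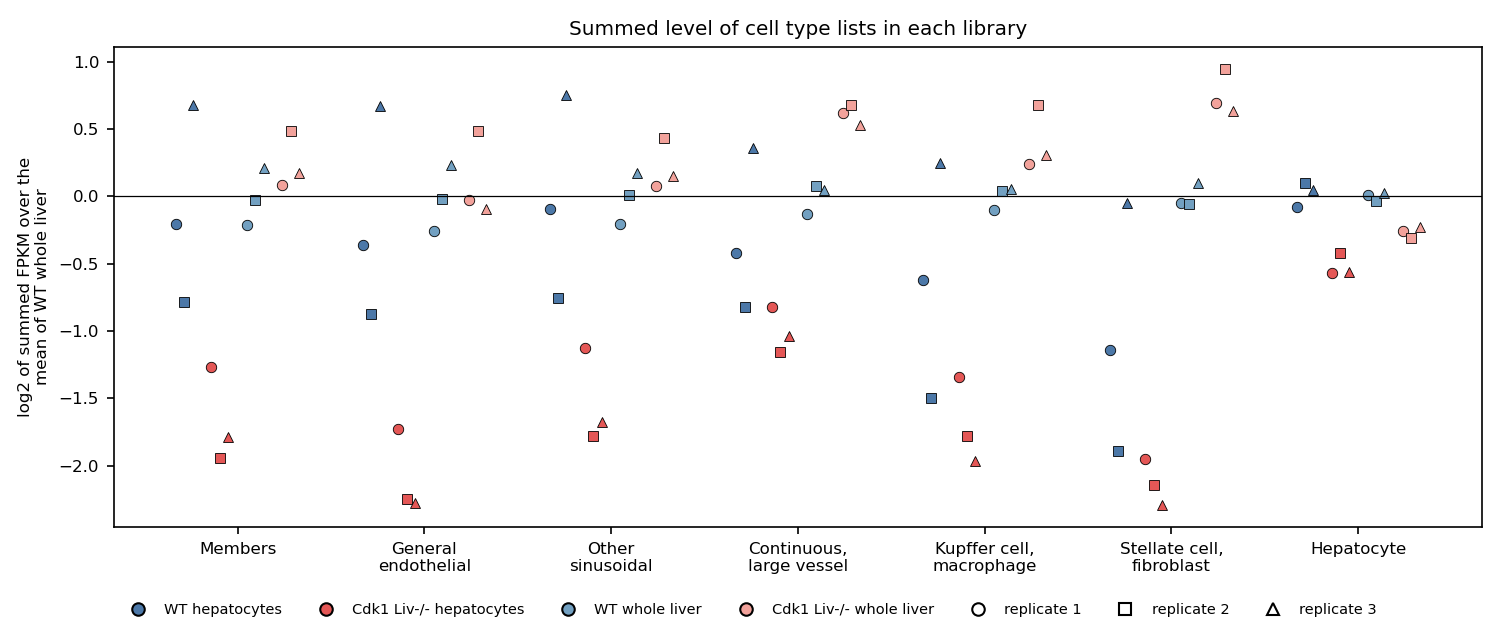
Log2 of the summed FPKM of 7 gene lists over the mean of WT whole liver, in each library. The members and the general endothelial list follow each other. Continuous and large vessel genes lie above 0 in every Cdk1 Liv-/- whole liver library. So do the members and the other sinusoidal, Kupffer cell and stellate cell lists.

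To see how the members varied among themselves, each was set against the mean of the general endothelial list in the same library, on the log2 scale and with no test. The difference between Cdk1 Liv-/- and WT hepatocytes then lay between -0.88 for Lyve1 and 0.80 for Gata4, which was at -0.76 before. Relative to that list, Lyve1 and Oit3 were lower in all Cdk1 Liv-/- than in all WT hepatocyte libraries, by -0.88 and -0.47. Gata4, Clec4g and Fcgr2b were higher in all of them, by 0.80, 0.44 and 0.32. For the other 5 members the groups overlapped. In whole liver, Stab1 and Fcgr2b were higher in all Cdk1 Liv-/- libraries, by 0.21 and 0.36, while Lyve1 had the lowest value, -0.56, with overlap through Cdk1 Liv-/- replicate 2. Egfl7 led the members by mean FPKM in 3 of the 4 groups, at 49.1 ± 24.8 FPKM in WT hepatocytes, 55.1 ± 7.11 FPKM in WT whole liver and 67.8 ± 17.0 FPKM in Cdk1 Liv-/- whole liver (SD, n = 3 each). In Cdk1 Liv-/- hepatocytes it stood at 11.4 ± 5.87 FPKM, after Clec4g at 14.1 ± 5.64 FPKM and Fcgr2b at 13.4 ± 2.60 FPKM, which differ by less than their spread. Lyve1 was seventh in WT hepatocytes at 12.7 ± 8.98 FPKM and last in Cdk1 Liv-/- hepatocytes at 1.63 ± 0.490 FPKM.

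**Figure D4:**
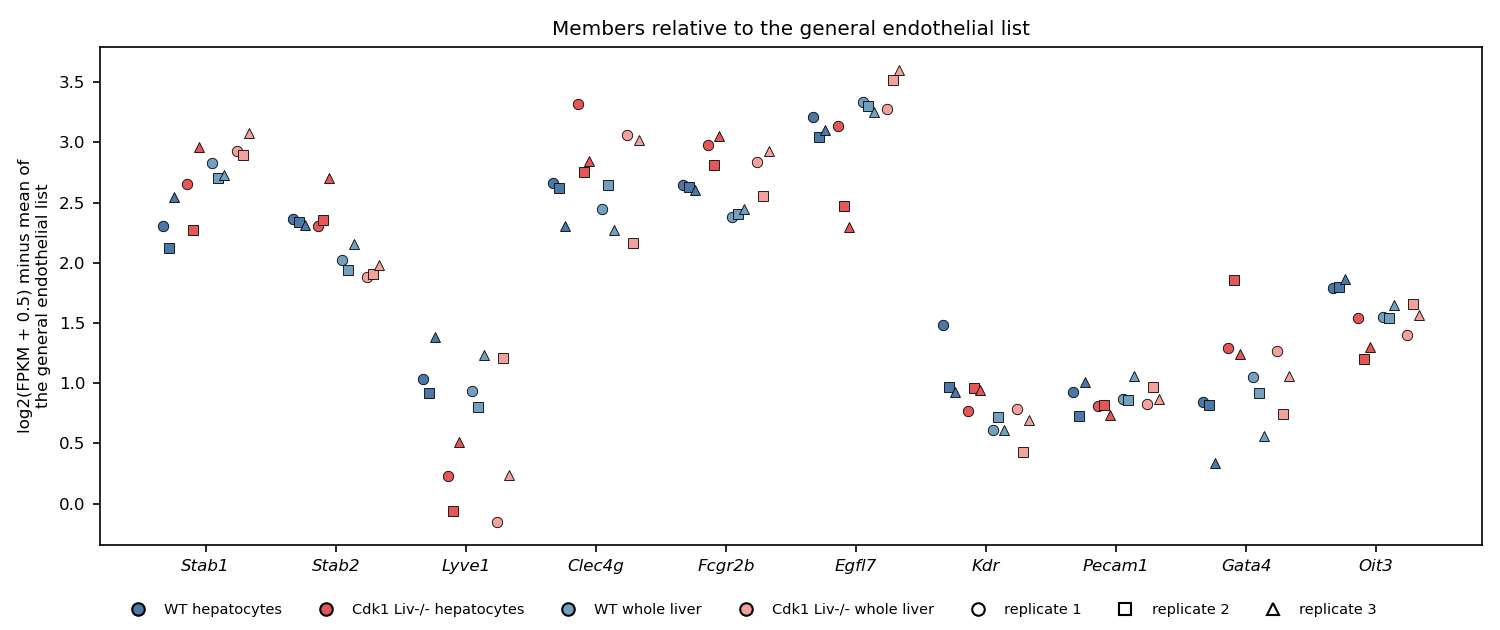
Log2(FPKM + 0.5) of each member minus the mean of the general endothelial list in the same library. Lyve1 and Oit3 are lower and Gata4, Clec4g and Fcgr2b higher in Cdk1 Liv-/- than in WT hepatocytes. The hepatocyte groups of Stab1, Stab2, Egfl7, Kdr and Pecam1 overlap.

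Over the 12 libraries the members varied together, with Pearson correlations between 0.73 and 0.985 over the 45 pairs and a median of 0.91. Over the 6 whole liver libraries alone they ran from -0.65 to 0.98, with a median of 0.66. The 12 libraries share the low level of the Cdk1 Liv-/- hepatocyte group, so these values are descriptions. Of 12272 genes with a mean of at least 1 FPKM outside the list, the 10 with the highest Pearson correlation with the mean of the members were Ushbp1, Mrc1, Arap3, Pde2a, Esam, Tie1, Gimap6, Myct1, Lrrc8c and Cdh5, from 0.997 for Ushbp1 to 0.991 for Cdh5 over 12 libraries. Of these, 6 are on the endothelial lists. By Spearman correlation 3 of the 10 were again among the first 10, and in whole liver alone 2 were.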

How the data were processed

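Libraries were made with a TruSeq Stranded mRNA kit and sequenced as single-end reads of 75 bp. The authors aligned reads with STAR (version not stated) and quantified genes with RSEM 1.2.31 on mm10, per the submitters' processing notes, and deposited FPKM with no normalization between libraries. Here, log2(FPKM + 0.5) was fitted with limma 3.58.1 in R 4.3.3 (eBayes, spread as a trend of expression, two-sided) on the 6 libraries compared, or all 12 for the interaction. P-values were adjusted by Benjamini-Hochberg over 17386 genes (mean FPKM 0.1 or more), and an adjusted p of at most 0.1 passed. Fold changes on this scale understate low genes. The fit and the depth estimate were tested on simulated data. At the fitted depth, 55.9% to 63.5% of low values on transcripts of 300 to 900 bp lay within 0.1 reads of a whole number, where 20% would by chance. Coordinates are from GENCODE M21 (GRCm38), promoters from RefSeq. A symbol listed for several genes took the one with the highest mean. All 10 members are named; of other lists, the genes with the 2 largest and 2 smallest changes at a mean FPKM of at least 1, and the most abundant, could be named. Alternatives were pseudocounts of 0.1 and 1, no filter or a mean FPKM of 1, 2 scalings, each library left out, a replicate block, a fold threshold, a fit of all 12 libraries and a two-sample test with the gene's own spread. A further one, chosen after the values were seen, left out the 3 libraries named under the interaction, where a comparison held them. Members and lists were chosen with earlier results of these data known. Replicate numbers were not taken as pairs. Figures were drawn with Python 3.11.15.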

Additional observations from a re-analysis of the deposited data

Results flagged for a closer look

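The genotype change differed between hepatocytes and whole liver, by the interaction over 12 libraries in limma, for 8 of the 10 members, where 7.49% of all genes passed in that direction. So did 18 of 20 general endothelial genes and 4 of 6 monocyte and neutrophil genes. The change in hepatocytes minus that in whole liver was, on the log2 scale, -1.44 for Stab2 (adjusted p = 0.0834), -1.51 for Clec4g (0.0708), -1.71 for Fcgr2b (0.0559) and -2.32 for Egfl7 (0.0544). It was -1.89 for Kdr (adjusted p = 0.0439), -1.72 for Pecam1 (0.0846), -1.04 for Gata4 (0.0813) and -2.09 for Oit3 (0.0559). With each of the 12 libraries left out in turn, the call was lost 11 times for Pecam1 and 10 times for Stab2, Clec4g and Gata4. For Fcgr2b, Egfl7 and Oit3 it was lost 3 times and for Kdr 1 time. Lower calls over all genes moved as well, as given above.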

How the results depend on the processing

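The 10 members lower in Cdk1 Liv-/- hepatocytes than in Cdk1 Liv-/- whole liver passed under every alternative. Against 8 members lower in Cdk1 Liv-/- than in WT hepatocytes, the count was 3 with no filter and 0 with the gene's own spread. It was 3 to 10 with 1 library left out, the 10 with Stab1 and Gata4 added. Over all genes 714, 568 and 402 to 1224 passed as lower in these settings. Against the 3 higher in Cdk1 Liv-/- whole liver, the count was 0 with size factors, where 3107 of all genes passed as higher. It was 0 in a fit of all 12 libraries (4928 of all genes) and 1 with the gene's own spread (5719). With 1 library left out it was 0 to 2 (4509 to 6190 of all genes). With a fold threshold it was 0, a setting for which all genes were not counted. Between WT hepatocytes and WT whole liver, 0 to 1 passed as lower with 1 library left out, where 0 to 2656 of all genes did. Against the 8 in the interaction, the count was 4 with no filter (678 of all genes) and 4 with size factors (492). It was 0 without the 3 libraries left out together (chosen after seeing the data), where 105 of all genes passed as lower. With 1 library left out it was 0 to 10 (43 to 2232 of all genes), the 10 with Stab1 and Lyve1 added. No filter adds genes to the adjustment, and a library left out leaves fewer samples. For the other settings the cause was not tested. Size factors moved the split of all genes from 6610 higher and 1310 lower to 3107 and 2844 in whole liver, and from 2108 and 1149 to 1709 and 1414 in hepatocytes.

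With a replicate block, 5 members passed as lower in hepatocytes, where 408 of the 17386 genes did. In whole liver 2 passed as higher, where 5567 of all genes did. Between the Cdk1 Liv-/- compartments 10 passed as lower, where 5105 of all genes did. In the interaction 4 passed as lower, where 455 of all genes did. Replicate numbers are not said to pair animals, and same-numbered libraries had correlations of -0.32 to 0.24 between groups over 18 pairs, so no pairing was assumed.

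Log2 fold changes that turned sign were all of members that did not pass. In whole liver with size factors they were -0.11 for Kdr, -0.15 for Pecam1 and -0.15 for Oit3, and with equal sums 0.024 for Stab2. With 1 library left out they ran from -0.028 to 0.192 for Kdr, -0.14 to 0.24 for Pecam1, -0.16 to 0.21 for Oit3 and -0.17 to 0.16 for Stab2, and without the 3 libraries they were 0.006 for Stab2 and -0.005 for Oit3. Between the WT compartments, Clec4g was at 0.10 with size factors and 0.01 with equal sums. With 1 library left out the ranges were -0.30 to 0.23 for Clec4g, -0.655 to 0.065 for Egfl7, -0.59 to 0.24 for Pecam1, -0.18 to 0.51 for Stab2, -0.50 to 0.42 for Lyve1, -0.26 to 0.42 for Fcgr2b and -0.28 to 0.45 for Oit3. Without the 3 libraries they were -0.002 for Stab2, -0.26 for Lyve1, -0.12 for Fcgr2b and -0.13 for Oit3. Over the 50 member changes, 666 alternatives kept direction and side of the threshold, 129 lost a call, 13 gained one and 32 turned sign. By the depth estimate, the lowest member value, of Lyve1, rests on about 119 reads. The part of depth in the calls was not tested.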

Other observations

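The genes Esm1, Dll4 and Wnt2 were chosen after their values were seen, from the VEGF, angiopoietin and Notch list, the periportal and arterial list and the pericentral list. Esm1, an endothelial proteoglycan induced by VEGF, was at 3.03 FPKM in WT hepatocytes replicate 3 against 0.13 and 0.01 in replicates 1 and 2. In WT whole liver Esm1 was at 1.48 FPKM in replicate 3 against 0.08 and 0.05. In Cdk1 Liv-/- whole liver it was at 6.08 FPKM in replicate 2 against 0.22 and 0.24 in replicates 1 and 3, and no Cdk1 Liv-/- hepatocyte library exceeded 0.11 FPKM. The Notch ligand Dll4 was highest in the same library of each of these groups, with 4.19 FPKM in WT hepatocytes replicate 3, 2.37 in WT whole liver replicate 3 and 3.43 in Cdk1 Liv-/- whole liver replicate 2. The pericentral Wnt ligand Wnt2 went the other way in whole liver, with 1.36 FPKM in WT replicate 3 against 2.53 and 2.99, and 0.70 in Cdk1 Liv-/- replicate 2 against 2.58 and 2.18. The labels give no reason why libraries of 1 group differ in these genes.

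Of the blood and duct lists, 6 of 6 monocyte and neutrophil genes and 4 of 5 cholangiocyte genes tested (2 with size factors) passed as higher in Cdk1 Liv-/- whole liver, where 38.0% of all genes did. So did 7 of 12 stellate cell and fibroblast genes and 4 of 11 Kupffer cell and macrophage genes (2 with size factors), with 1 lower in each of the latter lists. In Cdk1 Liv-/- hepatocytes, where 12.1% of all genes passed as higher, 4 of 5 cholangiocyte genes and 1 of 6 monocyte and neutrophil genes did. In Cdk1 Liv-/- whole liver, where 7.53% of all genes passed as lower, 2 of 5 B cell genes (3 with size factors) and 2 of 5 erythroid genes did. Of the lymphatic list 1 of 5 passed there as higher (0 with size factors), and of the megakaryocyte and platelet list 1 of 5. In Cdk1 Liv-/- hepatocytes, where 6.61% of all genes passed as lower, 2 of 5 B cell genes, 1 of 5 erythroid genes (2 with size factors), 2 of 4 T and NK cell genes and 1 of 5 lymphatic genes did.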
